A study of Mus musculus with 6 samples.

Results

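A set of 10 genes, out of 18193 with a probe set of their own on the array, was followed here. They encode secreted proteins that sit in or beside the collagen scaffold of the spleen, and were chosen with earlier results of these data known. They are the matricellular proteins periostin (Postn), osteonectin (Sparc) and thrombospondin 1 (Thbs1), matrix Gla protein (Mgp), the small leucine-rich proteoglycans (SLRPs) decorin (Dcn), biglycan (Bgn), lumican (Lum), fibromodulin (Fmod) and osteoglycin (Ogn), and fibulin 2 (Fbln2). Every probe set whose platform annotation gives one of these symbols and no other was taken, which gave 23 of 45037 tested probe sets. One further probe set carries Thbs1 together with another symbol and was left out. Postn, Mgp and Lum had 1 probe set each and the other 7 genes had 2 to 6.

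The tissue was spleen from adult F1 females, 1 spleen per Affymetrix array, with 3 animals of (AKR/J x FVB/NJ)F1, here AKR F1, and 3 of (DBA/2J x FVB/NJ)F1, here DBA F1. Both crosses share the inbred parent FVB/NJ and were given Avertin anaesthesia before death, the labels name no other treatment, and the exact age is not stated in the labels. The question is which transcripts differ at baseline between both genotypes. Values are log2 signals, and all differences are AKR F1 minus DBA F1 on that scale, so 1 unit is a doubling of signal and values above 0 mean more signal in AKR F1. A difference was called when limma's p, adjusted by Benjamini-Hochberg over all 45037 probe sets, was under 0.05. Each label names one spleen, so the p-values rest on the spread between 3 animals of each cross.

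Matricellular proteins are secreted into the matrix and regulate how cells attach, migrate and respond to growth factors, without being main load-bearing parts of it. SLRPs have a small protein core built of leucine-rich repeats; decorin, lumican, fibromodulin and biglycan bind fibrillar collagen and influence the assembly and spacing of its fibrils, and several of them bind growth factors of the TGF-beta family. In the spleen such proteins belong to the capsule, the trabeculae, the vessel walls and the reticular fibre network, and thrombospondin 1 and osteonectin are also stored in platelet granules.

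Promoter windows from RefSeq (assembly GRCm38.p6, from 250 bases before to 50 bases after an annotated start) were available for 6 of the 10 genes, in 7 windows, namely those of Postn, Sparc, Bgn, Fmod, Ogn and Fbln2. No entry was used for Thbs1, Mgp, Dcn or Lum. The windows of Postn and Fmod are printed because these are the genes with a called difference that have an entry. All 3 lie on the plus strand, and capitals mark a TATA box (TATAAA) in Postn and an E-box (CANNTG) in Fmod.
Postn, upstream start, chr3:54359017-54359316: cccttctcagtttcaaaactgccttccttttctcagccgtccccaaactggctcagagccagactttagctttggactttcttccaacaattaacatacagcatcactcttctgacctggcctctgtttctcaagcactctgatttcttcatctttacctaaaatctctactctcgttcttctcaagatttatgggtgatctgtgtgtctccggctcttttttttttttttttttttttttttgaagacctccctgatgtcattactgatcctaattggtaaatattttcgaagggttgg
Postn, downstream start, chr3:54360857-54361156: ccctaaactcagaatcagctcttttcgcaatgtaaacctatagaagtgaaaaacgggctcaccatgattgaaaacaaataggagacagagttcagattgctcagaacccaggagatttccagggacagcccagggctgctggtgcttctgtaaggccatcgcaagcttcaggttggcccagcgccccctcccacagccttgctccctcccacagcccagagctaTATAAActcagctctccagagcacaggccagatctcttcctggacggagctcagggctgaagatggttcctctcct
Fmod, chr1:134037004-134037303: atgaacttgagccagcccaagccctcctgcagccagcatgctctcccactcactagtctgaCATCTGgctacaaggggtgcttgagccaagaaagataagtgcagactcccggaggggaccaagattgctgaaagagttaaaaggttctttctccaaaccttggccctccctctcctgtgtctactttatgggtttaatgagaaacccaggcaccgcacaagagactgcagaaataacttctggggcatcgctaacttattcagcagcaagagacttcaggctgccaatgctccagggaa

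The 4 motifs searched for on both strands of each window were the TATA box (TATAAA), the GC box (GGGCGG), the E-box (CANNTG) and an AP-1 site (TGANTCA). The downstream Postn window holds 1 TATA box, which begins 26 bases before the annotated start, on the gene's own strand. Of 32851 mouse promoter windows of the same length, 13.6% hold that motif. The upstream Postn window holds none of the 4 motifs. The Fmod window holds 1 E-box, 189 bases before the start, a motif found in 72.3% of all windows. Bgn and Fbln2 hold 3 and 2 GC boxes (35.7% of all windows hold at least 1) and 1 E-box each. Sparc holds 3 E-boxes, and Ogn holds 4 E-boxes and 2 overlapping TATA boxes that lie 229 and 227 bases before its start. The AP-1 site is in 0 of the 7 windows and in 7.81% of all windows. These are matches of letters in the reference sequence of one mouse strain and not measurements of binding.

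Spleens of AKR F1 had more periostin and lumican signal, by 2.69-fold and 2.18-fold, at 1 probe set each. Smaller excesses were found at 1 decorin and 1 fibromodulin probe set (1.54-fold and 1.45-fold). In all, 4 of the 23 probe sets (17.4%) passed the threshold, each higher in AKR F1, where 10.4% of all probe sets passed, 5.14% with AKR F1 and 5.26% with DBA F1 higher. The other 19 did not pass, and their differences ran from -0.49 to 0.12. By family, 3 of the 14 SLRP probe sets passed, in 3 of the 5 genes, and 1 of the 6 matricellular probe sets, in 1 of the 3 genes. Mgp and Fbln2 had 0 calls in limma at 3 probe sets (1, of Fbln2, at an unadjusted p under 0.05). Genes with more probe sets had more chances of a call, and the share of all genes with any called probe set was not computed. Taking the brightest probe set of each gene, 4 of 10 genes passed, against 12.5% of 18193 genes (6.29% with AKR F1 higher). Because the 10 genes were chosen with earlier results of these data known, these shares are no independent test of the family. The median difference was 0.06 over the 23 probe sets and 0.10 over the 10 genes, against -0.02 over all probe sets and -0.01 over all genes. The number of called probe sets was 2 without replicate 1 or 3 of AKR F1 or replicate 2 or 3 of DBA F1, 3 without replicate 2 of AKR F1 and 4 without replicate 1 of DBA F1. The 3 were those of Postn and Lum and 1450377_at of Thbs1, which was lower in AKR F1 (-0.67). With 1 array left out the number of all probe sets past the threshold was 1001 to 4793, against 4688 with all 6.

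**Figure D1:**
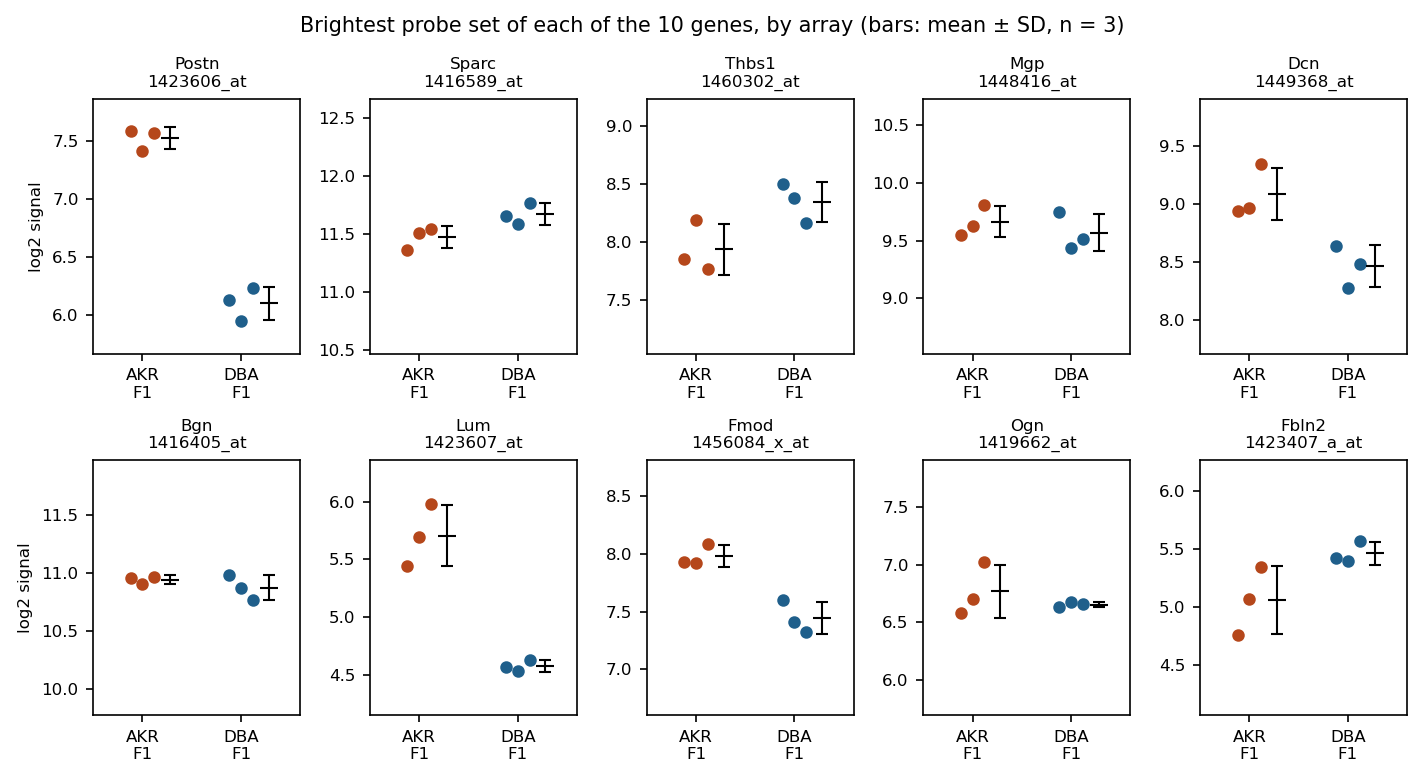
Log2 signal of the brightest probe set of each of the 10 genes in each array, with the mean and SD of each cross (n = 3); every panel spans the same height on the log2 axis. Postn, Lum, Dcn and Fmod lie higher in all 3 AKR F1 arrays than in any DBA F1 array. Sparc and Fbln2 lie lower in all 3, and Bgn, Mgp, Ogn and Thbs1 overlap. Over all probe sets, the crosses did not overlap at 36.1%.

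Periostin, encoded by Postn, binds integrins and collagen and is made by fibroblasts of connective tissue under tension. Its one probe set (1423606_at) stood at 7.59, 7.41 and 7.57 in AKR F1, against 6.12, 5.94 and 6.23 in DBA F1. The lowest AKR F1 spleen thus lay more than 1 unit above the highest DBA F1 spleen. The means were 7.52 ± 0.09 and 6.10 ± 0.14 (SD, n = 3 each), a difference of 1.43 ± 0.10 (SE; adjusted p = 0.000399 in limma). Of the 23 probe sets this was the largest difference. It passed with any 1 array left out, at differences of 1.35 to 1.49 and adjusted p of 0.00133 to 0.00455. With a single probe set on the array there was no second set of probes for Postn to compare with.

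Osteonectin, encoded by Sparc, is a calcium-binding glycoprotein that binds collagen and is released by platelets. Its brightest probe set (1416589_at) stood at 11.36, 11.51 and 11.54 in AKR F1, against 11.65, 11.59 and 11.77 in DBA F1. The crosses did not overlap, but the gap was small and the difference of -0.20 ± 0.09 did not pass (adjusted p = 0.175 in limma, 95% interval -0.41 to 0.01). The other Sparc probe sets differed by 0.08 ± 0.09 (1448392_at) and -0.18 ± 0.10 (1458204_at) and did not pass. The difference of 1416589_at was 0.28 below that of 1448392_at, with the crosses not overlapping in the gap between both probe sets (exact permutation p = 0.1, two-sided, the smallest that 3 against 3 arrays allow). This pair was chosen after its values were seen, and the 95% intervals of all 3 Sparc differences include 0, so that no direction was established for Sparc.

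Thrombospondin 1, encoded by Thbs1, binds CD36 and CD47 and activates latent TGF-beta. Probe set 1460302_at stood at 7.85, 8.19 and 7.77 in AKR F1, against 8.50, 8.38 and 8.16 in DBA F1, and probe set 1450377_at at 6.72, 7.25 and 6.72, against 7.58, 7.39 and 7.20. At both, replicate 2 of AKR F1 reached above replicate 3 of DBA F1 and the other spleens did not overlap. The differences were -0.41 ± 0.13 and -0.49 ± 0.16, neither past the threshold (adjusted p = 0.0828 and 0.0833 in limma). Without replicate 2 of AKR F1, 1450377_at differed by -0.67 (adjusted p = 0.0410) and passed, and 1460302_at differed by -0.54 (adjusted p = 0.0598) and did not; no other single array left out gave Thbs1 a call. Genes of megakaryocytes and platelets, which carry thrombospondin 1, ranked the 6 arrays in the same order by their mean as both Thbs1 probe sets did. Of 9 measured, 9 were lower in AKR F1, 0 passed in limma (4 at an unadjusted p under 0.05), and the median difference was -0.30. Their mean log2 signal was 8.35, 8.61 and 8.35 in AKR F1, against 9.03, 8.69 and 8.53 in DBA F1, so that replicate 2 stood apart there as well. Their part in the Thbs1 values was not tested. In whole spleen, fewer cells of a type and less RNA per cell cannot be told apart.

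Matrix Gla protein, encoded by Mgp, is an inhibitor of calcification that depends on vitamin K and is made by vascular smooth muscle cells and chondrocytes. Its one probe set (1448416_at) stood at 9.55, 9.62 and 9.81 in AKR F1, against 9.75, 9.44 and 9.52 in DBA F1. The crosses overlapped and the difference was 0.09 ± 0.11 (adjusted p = 0.591 in limma), with a 95% interval of -0.16 to 0.35.

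Decorin and biglycan, the class I SLRPs, carry chondroitin or dermatan sulphate chains. The decorin probe set 1449368_at stood at 8.94, 8.97 and 9.35 in AKR F1, against 8.63, 8.27 and 8.48 in DBA F1. The crosses did not overlap, and Dcn was 0.62 ± 0.14 higher in AKR F1 (adjusted p = 0.0309 in limma, 95% interval 0.31 to 0.94). That call held without replicate 1 of DBA F1 (0.71, adjusted p = 0.0252). It was lost without replicates 1, 2 and 3 of AKR F1 (adjusted p = 0.0648, 0.0604 and 0.0746), without replicates 2 and 3 of DBA F1 (0.0937 and 0.0771) and after quantile normalization (0.0578), at differences of 0.49 to 0.69. The second Dcn probe set, 1441506_at, stood at 2.79 to 2.92 in AKR F1 and 2.85 to 2.98 in DBA F1, among the dimmest signals of the array, and differed by -0.06 ± 0.08. Biglycan gave no call at any of its 3 probe sets (0 at an unadjusted p under 0.05). At 1416405_at Bgn stood at 10.96, 10.90 and 10.97 in AKR F1, against 10.98, 10.87 and 10.77 in DBA F1, and the 3 differences ran from -0.09 to 0.07, with 95% intervals between -0.31 and 0.27.

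Lumican and fibromodulin are the class II SLRPs, which carry keratan sulphate and bind collagen fibrils. Lum (1423607_at) stood at 5.45, 5.69 and 5.98 in AKR F1, against 4.57, 4.54 and 4.64 in DBA F1. The DBA F1 mean (4.58) lay little above the 40th percentile of mean signal over all probe sets (4.33), so that signal was low. All 3 AKR F1 spleens were higher by at least 0.8 unit than any DBA F1 spleen, and they were also more spread (SD 0.26, against 0.05 in DBA F1). The difference was 1.13 ± 0.13 (adjusted p = 0.00405 in limma), and it passed with any 1 array left out (0.99 to 1.26, adjusted p of 0.00423 to 0.0238). As with Postn, no second probe set was present.

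Fibromodulin had 6 probe sets, and 1 of them passed. The brightest, 1456084_x_at, stood at 7.93, 7.92 and 8.09 in AKR F1, against 7.60, 7.41 and 7.33 in DBA F1, a difference of 0.53 ± 0.10 (adjusted p = 0.0194 in limma). At 1415939_at, by contrast, Fmod stood at 7.22, 7.32 and 7.32 in AKR F1, against 7.18, 7.15 and 7.18 in DBA F1, a difference of 0.12 ± 0.08 that did not pass. The remaining 4 probe sets differed by -0.01 to 0.09 and overlapped between crosses. The difference of 1456084_x_at exceeded those of the other 5 by 0.41 to 0.55, with crosses that did not overlap in any of the 5 gaps. Exact permutation p was 0.1 each (two-sided, the smallest possible), and 0.1 after adjustment over the 6 probe set pairs compared, the Sparc pair included. All 5 gaps share 1456084_x_at, the called probe set, so they are not independent of each other or of its call. With that floor the test could not reach 0.05. An _x_at suffix marks a probe set that can share probe sequence with other transcripts, and the share of such signal here was not tested. The call of 1456084_x_at held without replicate 1 of DBA F1 (adjusted p = 0.0109) and was lost without replicates 1, 2 and 3 of AKR F1 (0.0583, 0.0503 and 0.0653) and without replicates 2 and 3 of DBA F1 (0.0674 and 0.0626), at differences of 0.47 to 0.56. The Fmod result is thus 1 probe set of 6.

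Osteoglycin, encoded by Ogn, is a class III SLRP of bone and connective tissue. At 1419662_at it stood at 6.58, 6.71 and 7.02 in AKR F1, against 6.63, 6.67 and 6.66 in DBA F1. Replicate 3 of AKR F1 stood above the rest, and the other 5 spleens lay close together. The differences were 0.11 ± 0.12 here and 0.06 ± 0.11 at 1419663_at, and neither passed (adjusted p = 0.535 and 0.733 in limma).

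Fibulin 2, encoded by Fbln2, is a glycoprotein of elastic fibres and basement membranes. At 1423407_a_at it stood at 4.76, 5.07 and 5.34 in AKR F1, against 5.42, 5.39 and 5.57 in DBA F1. The crosses did not overlap, though replicate 3 of AKR F1 came within 0.1 unit of the lowest DBA F1 spleen, and the difference of -0.40 ± 0.14 did not pass (adjusted p = 0.103 in limma). The second Fbln2 probe set, 1438375_at, was dim (2.11 to 2.39 in AKR F1 and 2.22 to 2.46 in DBA F1) and differed by -0.08 ± 0.10.

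**Figure D2:**
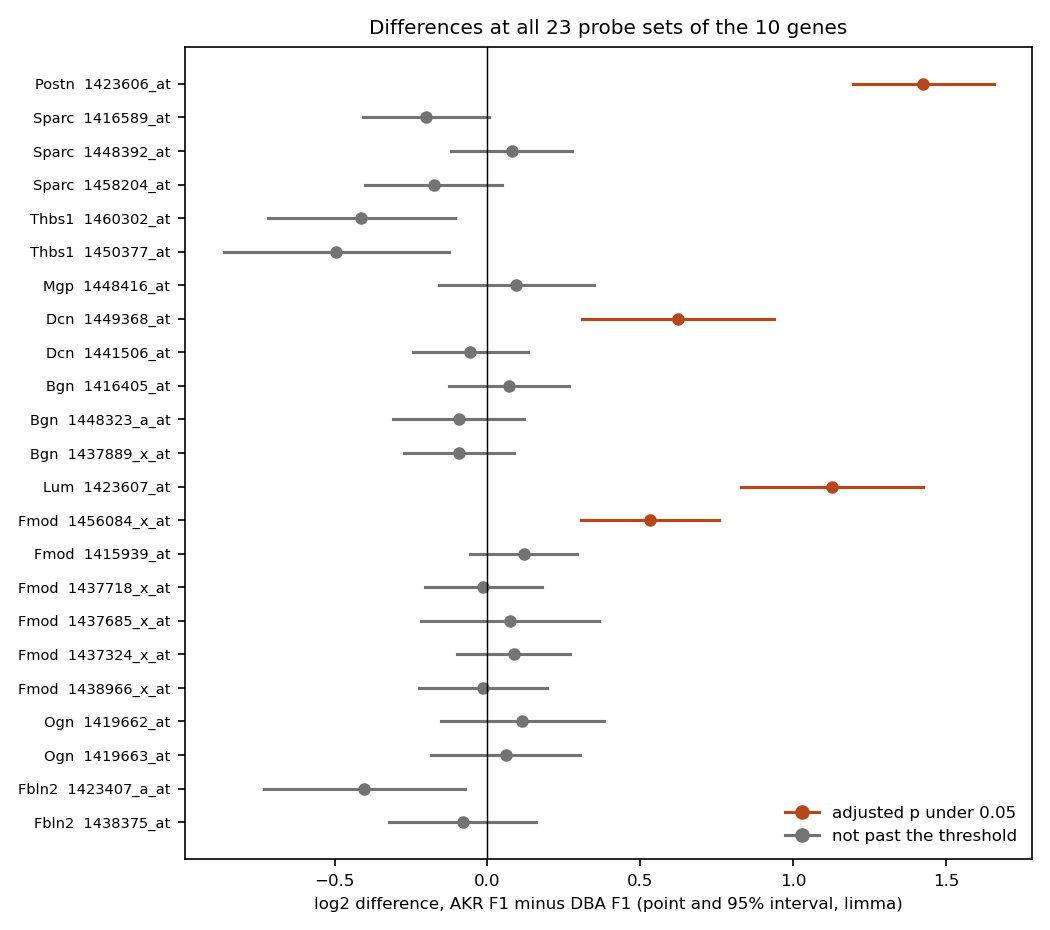
Log2 difference, AKR F1 minus DBA F1, with its 95% interval for all 23 probe sets of the 10 genes, grouped by gene. The probe sets of Postn, Lum, Dcn (1 of 2) and Fmod (1 of 6) that passed are coloured, and the 5 further Fmod probe sets centre on differences of -0.01 to 0.12.

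Groups that did not overlap were found at 7 of the 23 probe sets, 5 with AKR F1 above and 2 with DBA F1 above. That is 30.4%, against 36.1% of all probe sets (17.7% with AKR F1 above and 18.3% with DBA F1 above), a share below the background. Within AKR F1, replicate 3 had the highest signal of the 3 spleens at the brightest probe sets of Sparc, Mgp, Dcn, Bgn, Lum, Fmod, Ogn and Fbln2, and not at those of Postn and Thbs1. The mean over the brightest probe set of each of the 10 genes was 8.10, 8.20 and 8.34 in AKR F1 and 7.99, 7.85 and 7.91 in DBA F1. The SD within a cross, over the 23 probe sets, was 0.04 to 0.31 in AKR F1 and 0.02 to 0.24 in DBA F1.

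**Figure D3:**
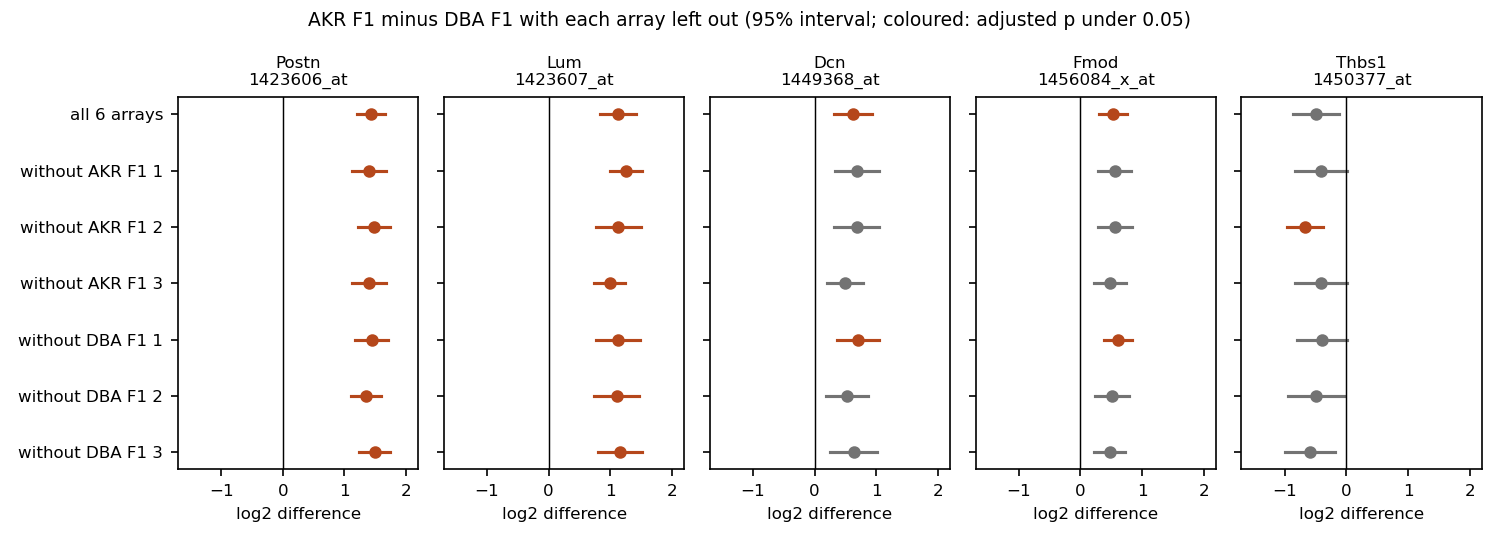
Log2 difference and 95% interval for the called probe sets of Postn, Lum, Dcn and Fmod and for Thbs1 1450377_at, with all 6 arrays and with each array left out; coloured points passed. Postn and Lum passed in all 7 fits, Dcn and Fmod in 2, and Thbs1 only without replicate 2 of AKR F1.

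Several of the genes lie beside relatives in the genome. In the RefSeq annotation Dcn and Lum are neighbours on chromosome 10, followed by the SLRP genes Kera and Epyc, and Dcn and Lum both were higher in AKR F1. Kera (2.48 in AKR F1 and 2.66 in DBA F1 on average) and Epyc (3.43 and 3.58) were dim and differed by -0.17 and -0.15, without a call. Next to Fmod on chromosome 1, Prelp and Optc differed by 0.20 and 0.16 and did not pass. Next to Ogn on chromosome 13, Omd, Aspn and Ecm2 differed by -0.02, 0.32 and -0.24 and did not pass. Of the 6 nearest measured genes around Postn on chromosome 3 (Frem2, Ufm1, Trpc4, Supt20, Exosc8 and Alg5), 0 passed in limma (3 at an unadjusted p under 0.05), and their differences ran from -0.27 to 0.30. Taking the 3 nearest measured genes on either side of each of the 10 genes, 6 of 54 further genes passed (11.1%, against 12.5% of all genes), a share close to the background. Slc36a1 beside Sparc was higher in AKR F1 (0.52, adjusted p = 0.0125). The other 5 were lower: Atp2b4 (-0.68, adjusted p = 0.0122) and Chit1 (-0.46, adjusted p = 0.0412) near Fmod, Atp2b3 (-0.53, adjusted p = 0.0238) and Zfp92 (-0.42, adjusted p = 0.0422) near Bgn, and Wnt7a beside Fbln2 (-0.54, adjusted p = 0.0260). This look at neighbours was added after the values of the 10 genes had been seen.

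Other genes of the same pathway, in lists chosen by function with earlier results of these data known, gave calls in both directions. Over 8 lists with 102 measured genes, 5 were higher in AKR F1 and 5 in DBA F1 (9.80% called, against 12.5% of all genes by brightest probe set, 6.29% with AKR F1 and 6.17% with DBA F1 higher), and the median difference was 0.08. Of 10 other SLRPs, 0 were higher in AKR F1 in limma (1 at an unadjusted p under 0.05) and 2 in DBA F1: Podn, podocan (-0.35 ± 0.08, adjusted p = 0.0293 in limma), and Nyx, nyctalopin (-0.57 ± 0.11, adjusted p = 0.0217), at a dim probe set (means of 3.85 in AKR F1 and 4.42 in DBA F1). The median of these 10 was -0.16. Of 19 other matricellular genes 0 passed in limma (4 at an unadjusted p under 0.05; median 0.06). The one with the smallest p was Ccn3 (0.37 ± 0.14, adjusted p = 0.123), a member of the CCN family of growth regulators. Of 5 other fibulins 0 passed in limma (also 0 at an unadjusted p under 0.05; median 0.07), and Fbln7 had the smallest p (0.12 ± 0.09, adjusted p = 0.381).

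Among 16 fibrillar collagens and their partners, Col5a2, a chain of the type V collagen that nucleates fibrils, was higher in AKR F1 (0.40 ± 0.09, adjusted p = 0.0359 in limma). Col6a3, a chain of the beaded-filament collagen VI, was lower (-0.60 ± 0.13, adjusted p = 0.0304), and 14 did not pass (median 0.09). Of 12 basement membrane genes, 1 passed: Hspg2, perlecan, was lower (-0.44 ± 0.08, adjusted p = 0.0174; list median 0.12). Of 12 genes of elastic fibres and fibronectin, Fn1, fibronectin itself, was higher (0.33 ± 0.08, adjusted p = 0.0369; list median 0.10). Of 16 receptors, Itgav, the integrin chain that pairs into periostin receptors, was higher (0.40 ± 0.08, adjusted p = 0.0269), as was the receptor kinase Met (0.43 ± 0.10, adjusted p = 0.0370), a binding partner of decorin. Egfr, another receptor kinase that decorin binds, was lower (-0.40 ± 0.09, adjusted p = 0.0351), and the list's median was 0.09. Of 12 genes of TGF-beta and BMP signalling, the receptor Tgfbr2 was higher (0.34 ± 0.09, adjusted p = 0.0480; list median 0.15).

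The calls of these 10 listed genes depended on single arrays. Over the 102 genes, 0, 1 and 2 passed without replicates 1, 2 and 3 of AKR F1, and 17, 2 and 0 without replicates 1, 2 and 3 of DBA F1 (29 and 30 at an unadjusted p under 0.05 in the fits with 0). Without replicate 1 of AKR F1 the adjusted p of the 10 ran from 0.0614 (Hspg2) to 0.121 (Tgfbr2), and without replicate 3 of DBA F1 from 0.0524 (Hspg2) to 0.110 (Tgfbr2). Hspg2 passed without replicate 2 of AKR F1 (0.0466), Col6a3 and Nyx without replicate 3 of AKR F1 (0.0472 and 0.0404), and Nyx without replicate 2 of DBA F1 (0.0397). In those 3 fits the rest of the 10 did not pass. Without replicate 1 of DBA F1 8 passed, and Fn1 (0.0536) and Egfr (0.0522) did not.

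**Figure D4:**
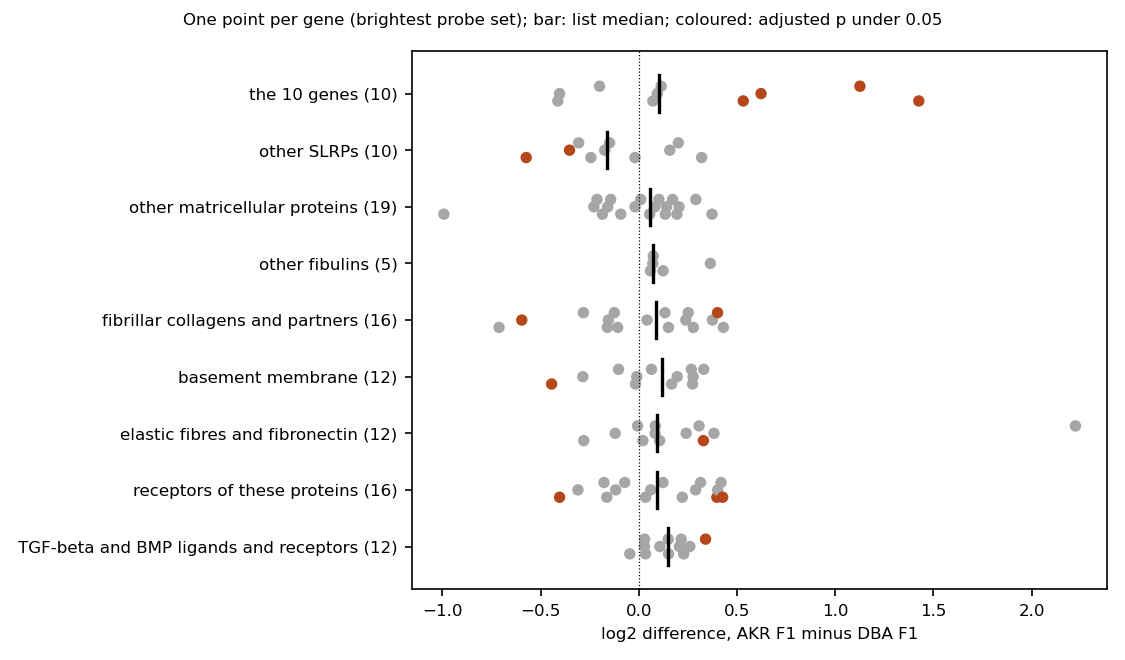
Log2 difference, AKR F1 minus DBA F1, of the brightest probe set of each gene, for the 10 genes and for 8 lists of related genes (number of measured genes in brackets), with list medians as bars. List medians lie between -0.16 and 0.15; the point beyond 2 is Vtn, vitronectin (2.22, adjusted p = 0.0919 in limma), which did not pass.

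The tissue label was checked on markers of spleen cells: 7 lymphocyte genes had mean log2 signals of 10.20, 10.10 and 10.15 in AKR F1, against 9.83, 9.71 and 9.70 in DBA F1, and 8 genes of red pulp macrophages had means of 10.61 to 10.70 in AKR F1 and 10.48 to 10.62 in DBA F1. All 9 measured genes of erythroid precursors were lower in AKR F1 and passed in limma, where 6.17% of all genes were called with DBA F1 higher. Their median difference was -1.71, with means of 8.47, 8.61 and 7.96 in AKR F1, against 9.66, 10.33 and 10.45 in DBA F1. With 1 array left out 6 to 9 of the 9 passed, 6 without replicate 3 of AKR F1 or replicate 2 of DBA F1, where Klf1, Gata1 and Tfrc did not (adjusted p of 0.0507 to 0.0673). Their part in the values of the 10 genes was not tested. Markers of other tissues also differed between arrays. The 15 measured genes of pancreatic acinar cells had mean log2 signals of 13.59, 13.60 and 13.68 in AKR F1 and 12.90, 13.37 and 5.77 in DBA F1, so that 5 of the 6 arrays carried strong pancreatic signal. Without replicate 3 of DBA F1, the array without it, Postn, Lum and Dcn differed by 1.49, 1.15 and 0.63, against 1.43, 1.13 and 0.62 with all arrays, and Fmod 1456084_x_at by 0.47, against 0.53. In that fit Dcn and Fmod 1456084_x_at did not pass (adjusted p = 0.0771 and 0.0626 in limma). Only arrays with strong pancreatic signal were left in it, but their pancreatic signal was not equal between crosses. Of the 15 acinar genes, 0 passed in limma in that fit and 14 had an unadjusted p under 0.05. With all 6 arrays 0 passed in limma (also 0 at an unadjusted p under 0.05), all 15 were higher in AKR F1, and the median difference was 3.03. Postn in replicate 3 of DBA F1 (6.23) was within 0.3 unit of the other DBA F1 spleens (6.12 and 5.94), and Lum (4.64) within 0.1 unit of them (4.57 and 4.54). The part of pancreatic tissue in the values of the 10 genes was not tested.

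The 7 measured adipocyte genes averaged 5.47, 6.16 and 6.23 in AKR F1, against 5.71, 4.97 and 5.54 in DBA F1, with 0 past the threshold in limma and 3 at an unadjusted p under 0.05. Their defining gene Adipoq, adiponectin, stood at 6.01, 7.19 and 7.47, against 6.26, 4.12 and 5.97. The 7 mesothelial genes averaged 4.95, 4.84 and 5.56 in AKR F1, against 5.18, 4.61 and 4.60 in DBA F1. Of these 7, 1 passed, a share close to the 12.5% of all genes by brightest probe set. It was Krt8, a keratin of simple epithelia (1.05 ± 0.22, adjusted p = 0.0268 in limma). It lost its call without any 1 array of AKR F1 (0.0714, 0.0699 and 0.0814 without replicates 1, 2 and 3). The mesothelial gene Upk3b stood at 5.09, 4.84 and 6.50, against 6.43, 4.81 and 5.47. In both lists replicate 3 of AKR F1 had the highest mean of that cross, as it did at the brightest probe sets of Sparc, Mgp, Dcn, Bgn, Lum, Fmod, Ogn and Fbln2. The same held for the lists of pancreatic acinar, smooth muscle, splenic stromal, endothelial and red pulp macrophage genes. It did not hold for those of lymphocytes, platelets and erythroid precursors. Smooth muscle and pericyte markers overlapped between crosses (7.12, 7.12 and 7.29 against 7.32, 7.05 and 7.17, with 0 of 10 past the threshold in limma and 2 at an unadjusted p under 0.05). The part of these tissues in the values of the 10 genes was not tested.

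**Figure D5:**
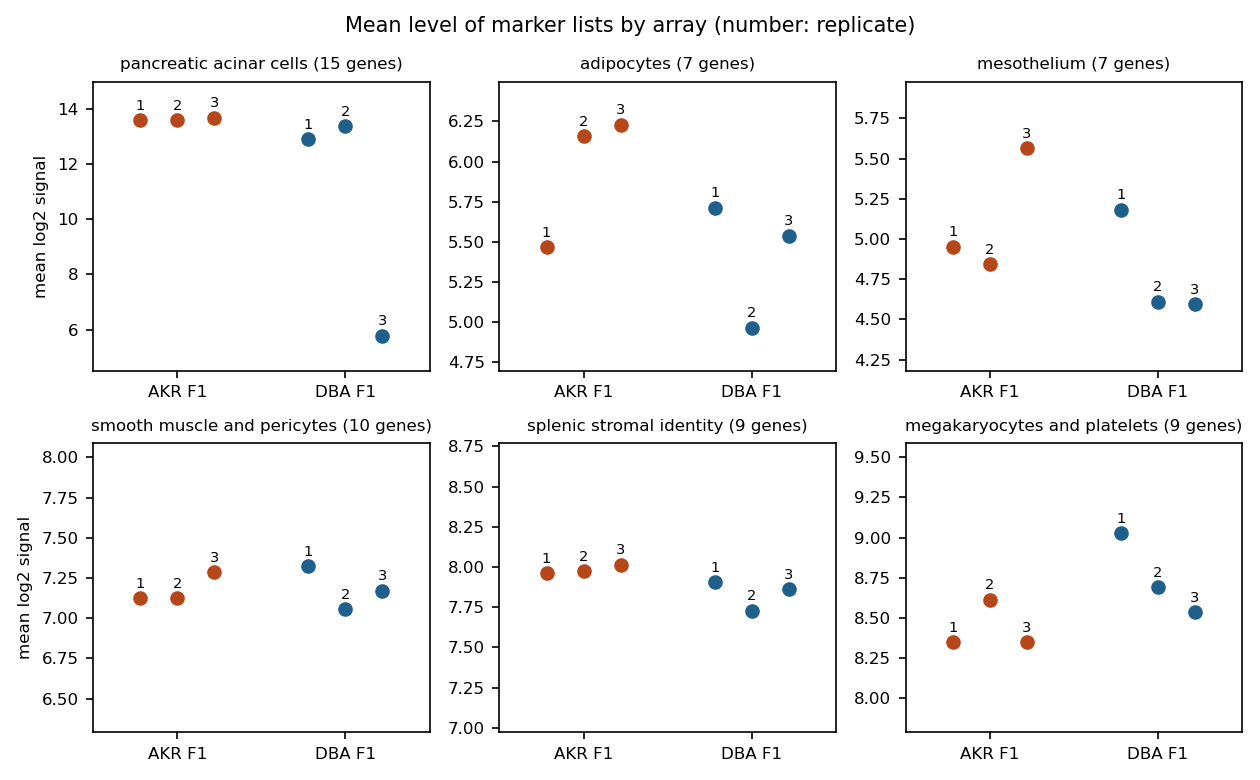
Mean log2 signal of 6 marker lists in each array, with replicate numbers beside the points; the panel of pancreatic acinar genes spans a wider range than the others. Replicate 3 of DBA F1 stands at 5.77 for pancreatic acinar genes, and replicate 3 of AKR F1 is highest of its cross in every panel but that of megakaryocytes and platelets.

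Among 22834 other probe sets with 1 symbol at or above the 40th percentile of mean signal, those that followed the mean of the 10 genes most closely over the 6 arrays belonged to Vps28, Dclk1, Dhrs7, Timp2 and Acad11. Likeness was measured by Pearson's r, which was 0.996 to 0.999 for these 5, and all 5 ranked the arrays in the same order as that mean. Timp2, an inhibitor of matrix metalloproteinases, stood at 9.58, 9.67 and 9.79 in AKR F1, against 9.45, 9.35 and 9.43 in DBA F1 (0.27 ± 0.09, adjusted p = 0.0776 in limma). These are the closest of many probe sets over few arrays that also differ by cross, and they describe these arrays.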

How the data were processed

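Total RNA of 6 spleens, extracted with Trizol and labelled with biotin, was hybridised to 1 Affymetrix array each, per the labels' protocols. Values were deposited as log2 signals per probe set and were brought to a common scale by the authors, as array medians of 5.04 to 5.10 show. RMA and MAS5 are named, per the submitters' processing notes, without role or version. Groups and replicate numbers come from the sample titles.

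Of 45101 probe sets, 64 Affymetrix controls were left out. The rest were fitted with limma 3.58.1 (lmFit, eBayes) in R 4.3.3, without covariates, and p-values were adjusted by Benjamini-Hochberg over 45037 probe sets (threshold 0.05). The fit was tested on simulated data. For lists of genes, a gene stood by its brightest probe set with 1 symbol. RefSeq gave 0 changed symbols for the 23 probe sets. Exact permutation of 3 against 3 arrays cannot go below p = 0.1, and the number of arrays limits the precision.

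The 10 genes and all lists were chosen with earlier results of these data known. All probe sets of the 10 genes are named; from each list up to 4 called genes with the smallest p, or the gene with the smallest p. Marker genes, Vtn and the neighbours were added as examples. Alternatives tried were centring on medians, quantile normalization, a filter at the 40th percentile of mean signal, limma's array weights, its trended robust variance fit, a replicate block, 1 array fewer, and averaging all probe sets of a gene.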

Additional observations from a re-analysis of the deposited data

How the results depend on the processing

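The 4 called probe sets of the 10 genes kept their direction in all 12 alternative fits, and Postn and Lum kept their call in all 12. The average over all probe sets of a gene is not among these 12 and is given for the listed genes only. For Fmod it would take in 5 probe sets that did not pass, and for Dcn 1. The number of called probe sets of the 10 genes was 3 after quantile normalization, 4 in the other 5 fits on all arrays, and 2 to 4 with 1 array left out. The number over all probe sets was 3191 after quantile normalization and 1001 to 4793 with 1 array left out. The number of listed pathway genes past the threshold was 10, against 16 with each array centred on its median, 5 after quantile normalization, 20 with array weights, 11 when all probe sets of a gene were averaged and 0 to 17 with 1 array left out. The cause of these shifts was not tested. Same-numbered samples correlated in their deviations from the group means at 0.20, 0.11 and 0.05. Each sample correlated best with its own number except replicate 3 of DBA F1 (0.06 with replicate 2 of AKR F1). The numbers were not taken to pair the samples. With the replicate number as a block 4 probe sets of the 10 genes, 10 listed genes and 4658 of all probe sets passed. The sign changed in 15 cases at 6 probe sets, 0 of them called. Fmod 1437718_x_at was 0.019 with centring and 0.012 with array weights, and Fmod 1438966_x_at 0.017 with centring, 0.054 after quantile normalization and 0.011 with array weights. Dcn 1441506_at was 0.029 after quantile normalization. With 1 array left out, Fmod 1437718_x_at ran from -0.041 to 0.040, Fmod 1438966_x_at from -0.073 to 0.029, Fmod 1437685_x_at from -0.052 to 0.18, Ogn 1419662_at from -0.012 to 0.21 and Ogn 1419663_at from -0.018 to 0.12. The pseudocount alternative was not run, since the values are log2. Of the 23 probe sets, 2 (Dcn 1441506_at and Fbln2 1438375_at) lay below the 40th percentile of mean signal.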

Other observations

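Endothelial and stromal markers were compared in the same fit, in which 12.5% of all genes passed by their brightest probe set and 6.29% were higher in AKR F1. Of 8 measured endothelial genes 2 were higher in AKR F1: the angiopoietin receptor gene Tek (0.43 ± 0.09, adjusted p = 0.0270 in limma) and the VEGF receptor gene Kdr (0.38 ± 0.09, adjusted p = 0.0368). Of 9 genes of splenic stromal identity 1 was higher, a share close to that background, namely Nr2f2, a nuclear receptor (0.41 ± 0.10, adjusted p = 0.0385), and the list means were 7.96, 7.97 and 8.01 in AKR F1, against 7.90, 7.73 and 7.86 in DBA F1. The platelet-derived growth factor receptor gene Pdgfrb (0.54 ± 0.14, adjusted p = 0.0509) and the stromal transcription factor gene Tcf21 (0.43 ± 0.13, adjusted p = 0.0616) did not pass. Tek passed without replicate 1 or 3 of DBA F1, Kdr without replicate 1 of DBA F1, and Nr2f2 without replicate 2 of AKR F1 or replicate 1 of DBA F1, and they did not pass in the rest of the 6 such fits (adjusted p of 0.0721 to 0.0831, 0.0805 to 0.108 and 0.103 to 0.113).

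Of 7 lymphocyte markers 5 passed in limma, each higher in AKR F1 (against 6.29% of all genes), the T cell coreceptor gene Cd8a among them (0.59 ± 0.07). That count was 6 without replicate 1 of DBA F1 and 2 without any other single array, when Cd8a and Cd3g passed and Cd3e, Cd79a and Cd4 did not (adjusted p of 0.0541 to 0.133), and 3 after quantile normalization. Of 8 red pulp macrophage markers 1 passed, the share found over all genes, and it was Cd5l (0.71 ± 0.09 higher in AKR F1), a secreted macrophage protein.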
